A study of Mus musculus with 2 samples.

Results

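Complex I, NADH:ubiquinone oxidoreductase, was described here through the nuclear genes that carry its name in the mouse. The members were the genes whose symbol starts with Nduf and that have at least 1 protein-coding transcript in the annotation used by the deposited tables. This rule gave 46 genes out of 55536 annotated genes, of which 22028 were protein-coding. By their known roles they were 36 structural subunits of complex I, the assembly factors Ndufaf1 to Ndufaf8, and the pair Ndufa4 and Ndufa4l2, which carry the family name but belong to complex IV. A further 5 genes with an Nduf symbol had no protein-coding transcript and were kept apart. Ndufb4c, Ndufs6b, Ndufa11b and Ndufab1-ps are annotated as processed pseudogenes, and Ndufb1-ps as a noncoding RNA.

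RNA of heart tissue of male B6CASTF1/J mice, first-generation hybrids of the C57BL/6J and CAST/EiJ strains, was sequenced at 14 days of age. No treatment or engineered allele is given in the labels, and both libraries belong to the same group, so no conditions were compared. Each of the 2 stranded libraries was made from 300 ng of total RNA from which ribosomal RNA had been depleted and to which spike-ins had been added. The labels call the libraries biological replicates, name 3 males and give both libraries the same donor label, so the spread between them may include little variation between animals. Depth was 39334380 expected counts for replicate 1 and 46391250 for replicate 2, and spike-ins took 0.517% and 0.531% of them. All 6 cardiomyocyte markers were detected, with a median of 3285 and 3128 TPM, a transcript level scaled for gene length and depth. Markers of other cells and tissues differed between the libraries: the summed level of 4 atrial markers was 1585 TPM in replicate 1 and 491.7 in replicate 2, and that of 8 thymus and T cell markers was 1.12 and 49.99 TPM. Medians of 77.4 and 71.1 TPM for 3 endothelial markers, 61.4 and 59.1 for 4 pericyte markers and 7933 and 7849 for 3 erythroid genes were similar in both, and 4 skeletal muscle genes had medians of 0.0800 and 0.295 TPM. In whole tissue, fewer cells of a type and less RNA per cell cannot be told apart.

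Complex I takes electrons from NADH and passes them through a flavin and a chain of iron-sulfur clusters to ubiquinone, and it pumps protons across the inner mitochondrial membrane. Its matrix arm holds the redox centres, and its membrane arm holds the proton channels, whose core subunits are encoded by mitochondrial DNA. The remaining subunits are nuclear-encoded, and dedicated assembly factors, absent from the finished enzyme, join the modules. The heart makes most of its ATP by oxidative phosphorylation, and complex I is a main entry point for its electrons.

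Several members have processed copies in the genome, and the 4 such pairs whose copy has an Nduf symbol are shown. Reads from them are not equally hard to assign. Of the distinct stretches of 100 bases in the copy, the gene shared 100% for Ndufb4c and 49.9% for Ndufab1-ps. For Ndufs6b and Ndufa11b it shared 0%. The stretches below come from the coding sequence of the gene and from the aligned part of its copy (GENCODE M21 transcripts, mm10), are 90 bases long, and are written 5′ to 3′ with mismatches between gene and copy in capitals.
Ndufb4: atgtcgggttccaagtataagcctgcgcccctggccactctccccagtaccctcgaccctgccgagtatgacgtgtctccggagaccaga
Ndufb4c: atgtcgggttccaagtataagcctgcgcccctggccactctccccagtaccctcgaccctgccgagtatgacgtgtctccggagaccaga
Ndufs6: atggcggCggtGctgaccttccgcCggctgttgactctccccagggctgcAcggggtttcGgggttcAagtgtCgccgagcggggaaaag
Ndufs6b: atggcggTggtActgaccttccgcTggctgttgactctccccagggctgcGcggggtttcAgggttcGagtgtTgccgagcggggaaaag
Ndufa11: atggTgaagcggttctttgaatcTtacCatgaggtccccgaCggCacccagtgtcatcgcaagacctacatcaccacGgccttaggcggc
Ndufa11b: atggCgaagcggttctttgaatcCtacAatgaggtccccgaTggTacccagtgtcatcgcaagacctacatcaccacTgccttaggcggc
Ndufab1: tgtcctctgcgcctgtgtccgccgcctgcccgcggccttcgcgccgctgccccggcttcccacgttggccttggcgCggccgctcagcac
Ndufab1-ps: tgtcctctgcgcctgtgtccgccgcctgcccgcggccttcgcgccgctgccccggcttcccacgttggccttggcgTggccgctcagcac
The stretch of Ndufb4 and Ndufb4c held 0 mismatches, that of Ndufs6 and Ndufs6b 7, that of Ndufa11 and Ndufa11b 6 and that of Ndufab1 and Ndufab1-ps 1. Over the whole alignment, all 387 coding bases of Ndufb4 were found unchanged in the 390 bases of Ndufb4c. Identity was 96.5% for Ndufs6b, with 12 differing bases, 94.8% for Ndufa11b, with 22, and 99.6% for Ndufab1-ps, with 2.

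Most of the members, but not the assembly factors, were among the abundant RNAs of the heart. All 46 reached 1 TPM in both libraries, against 22.5% of all annotated genes and 51.8% of protein-coding genes. At 10 TPM 45 members remained and at 100 TPM 36, a level reached by 2.6% of protein-coding genes. Of 22015 nuclear protein-coding genes ranked by mean TPM, the first 500 included 35 members and the first 1000 included 36. The assembly factors ranked from place 2488, for Ndufaf1, to place 6086, for Ndufaf2. The 36 structural subunits took 2.97% and 2.95% of the TPM of all nuclear protein-coding genes in replicates 1 and 2, and the 8 assembly factors took 0.0336% and 0.0372%. The plot of levels by role shows the subunits above the assembly factors on the RSEM-style scale.

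**Figure D1:**
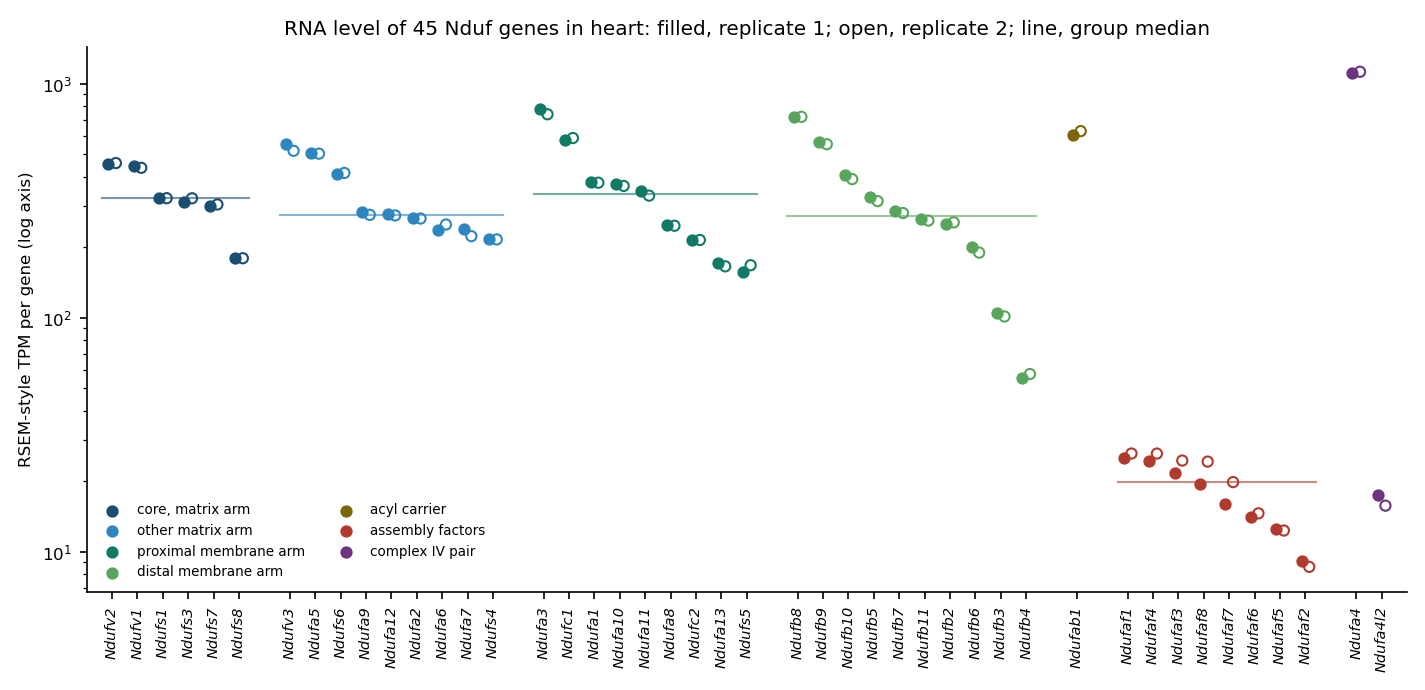
RNA level of 45 members, as RSEM-style TPM on a log axis, in replicate 1 (filled) and replicate 2 (open), with the genes grouped by role and ordered by mean level; lines mark medians of groups with more than 2 genes. Structural subunits lay between 55.3 and 776 TPM, and the assembly factors between 8.61 and 26.3 TPM, with no overlap on this scale; they did overlap in TPM of protein-coding transcripts only and in counts not scaled for length.

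Structural subunits and assembly factors did not overlap in either library by RSEM-style or kallisto-style gene TPM, but they did by 2 other measures. From protein-coding transcripts only, Ndufs4 at 22.4 TPM in replicate 1 and Ndufb4 at 24.03 in replicate 2 fell below Ndufaf1 at 24.2 and 24.35. By counts scaled for depth and not for length, Ndufb4 at 27.8 and 26.5 fell below Ndufaf4 at 31.4 and 34.96. The median of the 36 subunits was 305.7 TPM in replicate 1 and 309.95 in replicate 2, or 307.8 ± 2.98 (SD, n = 2 libraries, as for every SD given). The median of the 8 assembly factors was 17.76 and 22.045 TPM, or 19.9 ± 3.03. The log2 ratio of the medians was 4.11 in replicate 1 and 3.81 in replicate 2, or 3.96 ± 0.21. The lowest subunit, Ndufb4 at 56.4 ± 1.52 TPM, stood above the highest assembly factor, Ndufaf1 at 25.7 ± 0.778 TPM. With 2 libraries of 1 group no test of this ratio was made, and genes are not replicates.

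The 7 core subunits of the matrix arm had a median of 325.8 and 324.2 TPM. Ndufv2, an iron-sulfur protein of the NADH-oxidising module, had 454 TPM in replicate 1 and 458 in replicate 2, and Ndufv1, which binds NADH and the flavin, had 446 and 437. Both stood above the core subunits described next in each library. The large iron-sulfur subunit Ndufs1 had 326 and 324 TPM. Ndufs3 had 312 and 324 TPM, and Ndufs7, which carries the cluster nearest to ubiquinone, had 299.6 and 305. Ndufs8, an iron-sulfur protein with a ferredoxin-like fold, was the lowest core subunit at 181 and 179.6 TPM. Among the core subunits named here no neighbours in order overlapped in RSEM-style TPM, although Ndufs1 and Ndufs3 were nearly equal in replicate 2. In the kallisto-style tables the order of 3 of them changed. Ndufs3 had 547 and 559 TPM there, Ndufs7 had 382 and 391, and Ndufs1 had 332 and 334. Ndufs8 stood clear of the rest in both kinds of table, at 206 and 210 kallisto-style TPM.

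The 9 supernumerary subunits of the matrix arm, which hold no redox centre of the main chain, had a median of 277.8 and 273.6 TPM and spanned 2.46-fold, or 3.14-fold in the kallisto-style tables. The highest were Ndufv3 of the NADH-oxidising module, at 550.4 and 517 TPM, Ndufa5, at 505.5 and 503, and the zinc-binding subunit Ndufs6, at 412 and 416. These 3 did not overlap each other in RSEM-style TPM, but Ndufv3, at 809 and 755 kallisto-style TPM, overlapped Ndufa5, at 775 and 795. Ndufa9, of the short-chain dehydrogenase fold, had 283 and 275 TPM, Ndufa12 had 278 and 274, and Ndufa2, of a thioredoxin-like fold, had 268 and 265.5. The lowest were Ndufa6, an LYR-motif protein that binds the acyl carrier, at 238 and 250.3 TPM, Ndufa7, at 240.2 and 223, and Ndufs4, whose loss causes mitochondrial disease in humans and mice, at 218 and 216. In RSEM-style TPM Ndufa9 overlapped Ndufa12, Ndufa6 overlapped Ndufa7, and Ndufs4 stayed below them in each library.

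The 9 subunits of the proximal membrane arm had the highest median of the 4 larger subunit groups, 346.7 and 332.5 RSEM-style TPM. In the kallisto-style tables they had the lowest, with a mean median of 340.9 TPM. There the core group had 500.9 TPM, the distal membrane arm 434.6 and the supernumerary matrix arm 360.9. The small membrane subunit Ndufa3 led all structural subunits in the RSEM-style tables at 776 and 741 TPM, while it had 515 and 437 kallisto-style TPM and Ndufb8 led there. Ndufc1 came next in the RSEM-style tables, at 577 and 586. The X-linked Ndufa1, which is needed for the membrane arm to form, had 382 and 378 TPM. Ndufa10, which has a nucleoside kinase fold, had 371 and 366 TPM, Ndufa11, which lies where complex I meets complex III in the supercomplex, had 347 and 332, and Ndufa8 had 249 and 247. Ndufc2, a partner of Ndufc1, had 216 and 215 TPM. Ndufa13 had 171 and 166 TPM, and Ndufs5, a cysteine-rich subunit on the intermembrane side, was the lowest at 157 and 168. The levels of Ndufa13 and Ndufs5 overlapped, and those of Ndufa3 and Ndufc1 did not.

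The 10 subunits of the distal membrane arm, Ndufb2 to Ndufb11, spanned the widest range, 12.8-fold, around medians of 274.1 and 270.2 TPM. Ndufb8 was the highest at 723 and 723 TPM, followed by Ndufb9, another LYR-motif protein, at 566 and 552, and by Ndufb10, a cysteine-rich subunit, at 408 and 391. None of these neighbours overlapped. Ndufb5 had 327 and 315 TPM, Ndufb7 had 285 and 280.2, the X-linked Ndufb11 had 263 and 260.1, and Ndufb2 had 252 and 256. Ndufb6 had 201 and 189.8 TPM, Ndufb3 had 105 and 101, and Ndufb4 had 55.3 and 57.5. The last value depended on how reads were shared with Ndufb4c, as described below. The mitochondrial acyl carrier protein Ndufab1, which serves lipoic acid synthesis as well as complex I, had 604 and 628 TPM.

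Across all 36 structural subunits, which the enzyme holds at fixed numbers, the SD of log2 TPM was 0.78 in replicate 1 and 0.77 in replicate 2, and the highest mean level was 13.5-fold the lowest. This fold rested on Ndufb4, and in the kallisto-style tables it was 7.18. The ends of the groups also differed there: Ndufa5 led the matrix arm with 785 TPM, Ndufa2 was its lowest with 249.6, Ndufa13 was the lowest proximal subunit with 229, Ndufb3 the lowest distal one with 170.4, and Ndufaf3 led the assembly factors with 45.98. The order of the subunits was almost the same in both libraries, with a Spearman correlation of 0.998 across 36 genes, which are not independent replicates. The correlation of level with effective gene length was -0.240 across the same genes. The 2 X-linked subunits, Ndufa1 at 379.6 ± 2.74 TPM and Ndufb11 at 261.7 ± 2.23, lay within the range of the 34 autosomal subunits, whose median was 307.8 ± 2.98.

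The 8 assembly factors formed a low group with a span of 2.90-fold, near the 2.93-fold of the core subunits. By counts scaled for depth and not for length the spans were 8.33-fold and 5.70-fold. Ndufaf1, which works in the intermediate assembly complex of the membrane arm, had 25.2 TPM in replicate 1 and 26.3 in replicate 2. Ndufaf4 and Ndufaf3, partners in building the ubiquinone module, had 24.3 and 26.3 TPM and 21.8 and 24.5 TPM. Ndufaf8, known in human cells to stabilise Ndufaf5, had 19.5 and 24.3 TPM. Ndufaf7, a methyltransferase that acts on a subunit of the matrix arm, had 16.1 and 19.8 TPM. Each of these 5 overlapped its neighbour in the order across the libraries in RSEM-style TPM. Ndufaf6 followed with 14.1 and 14.6 TPM, Ndufaf5, which hydroxylates an arginine of Ndufs7, with 12.5 and 12.3, and Ndufaf2, which acts late in assembly, with 9.14 and 8.61. From Ndufaf7 downwards no neighbours overlapped in RSEM-style TPM. In the kallisto-style tables Ndufaf6 had 15.37 and 19.01 TPM, Ndufaf5 had 14.57 and 15.62, and Ndufaf2 had 15.71 and 14.26. Their levels overlapped there. Ndufaf4 had a mean of 21.1 kallisto-style TPM, below Ndufaf8 at 32.9 and Ndufaf7 at 28.2. Ndufaf2 rested on 162 and 179 counts, the fewest of any member.

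Assembly factors with other names lay near the Ndufaf genes, and complex II lay near the structural subunits. Of 12 assembly factors with other names, 11 were found, and Coa1 was not found under that symbol. All 11 reached 1 TPM in both libraries and 7 reached 10 TPM, with a median of 24.3 and 24.5 TPM. They ran from Sfxn4, at 2.41 and 2.35 TPM, to Aifm1, an apoptosis-related flavoprotein needed for import of small subunits, at 41.0 and 43.1. Ecsit, a partner of Ndufaf1, had 39.6 and 37.6 TPM, and Acad9, a dehydrogenase of the same assembly complex, had 22.5 and 19.2. The 4 subunits of complex II, the other entry of electrons to ubiquinone, had a median of 409 and 401 TPM, from Sdhd at 308 and 303 to Sdha at 538 and 527. The 7 mitochondrially encoded subunits had medians of 7631 and 6848 TPM, from mt-Nd6 at 1275 and 1188 to mt-Nd1 at 10177 and 9179. The level of mt-Nd4l depended on the table, at 8070 RSEM-style TPM and 118 kallisto-style TPM as means.

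Ndufa4 and Ndufa4l2 were strongly unequal paralogs. Ndufa4, a subunit of complex IV, was the highest of all 46 members in the RSEM-style tables at 1108 and 1126 TPM, and it ranked at place 28 among nuclear protein-coding genes. In the kallisto-style tables Ndufb8 was higher, with a mean of 1224 TPM against 1102 for Ndufa4. Ndufa4l2, its hypoxia-inducible paralog, had 17.5 and 15.7 TPM. Both libraries showed the gap, and the log2 ratio, taken with a pseudocount of 0.1 TPM, was 5.98 in replicate 1 and 6.15 in replicate 2, or 6.07 ± 0.12, which corresponds to 67.0-fold. Ndufa12 and Ndufaf2 are related in sequence, and Ndufa12 takes the place of Ndufaf2 when assembly ends. Their log2 ratio was 4.91 and 4.97, or 4.94 ± 0.04, a 30.7-fold excess of the structural subunit.

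The level of Ndufb4 could not be separated from that of its processed copy. In the RSEM-style tables Ndufb4, on chromosome 16, had 55.3 and 57.5 TPM, while Ndufb4c, a processed pseudogene on chromosome 15, had 239.7 and 235.2. The log2 ratio of gene over copy was -2.11 in replicate 1 and -2.03 in replicate 2, or -2.07 ± 0.06. The copy took 66.1% and 67.1% of the 3230 and 3739 counts assigned to both loci together. In the kallisto-style tables the direction was the opposite: Ndufb4 had 313.7 and 327 TPM and Ndufb4c had 0 estimated counts. With the copy set to a floor of 3 counts per library, the ratio in these tables was 318-fold and 386-fold. This sets no lower bound on the true ratio, because the 0 reflects how shared reads were assigned. All 291 stretches of 100 bases in Ndufb4c were also present in Ndufb4. The sum of both loci was 295 and 293 TPM, or 293.8 ± 1.72, beside a subunit median of 307.8 TPM. Summed in this way, a choice made after seeing the data, the SD of log2 TPM over the subunits was 0.65.

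**Figure D2:**
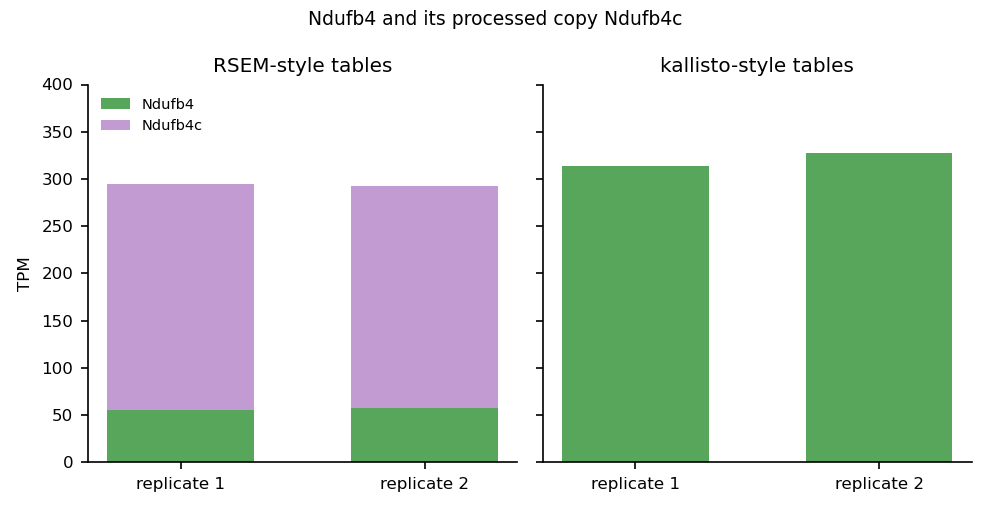
TPM of Ndufb4 and of its processed copy Ndufb4c, stacked from 0, in replicates 1 and 2 by the RSEM-style tables (left) and the kallisto-style tables (right). The RSEM-style tables gave most of the sum to the copy, and the kallisto-style tables gave it 0.

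Other members shared less sequence with other genes when stretches of 100 bases were compared. In their protein-coding transcripts, 37 of 46 members shared no such stretch with any other gene, and 5 shared more than 10% of their stretches. With stretches of 31 bases, 21 members shared none and 11 shared more than 10%, and Ndufs3, at 49.3%, shared more than Ndufb4, at 38.3%. The percentages that follow are for 100 bases. Ndufs5 shared 12.7% with the processed pseudogene BC002163, which had 104.8 and 93.4 TPM in the RSEM-style tables and 0 in the kallisto-style tables. Ndufs5 itself had 337.7 ± 3.25 kallisto-style TPM against 162.4 ± 7.35 RSEM-style TPM. Ndufa12 shared 17.7% with Gm15920, at 64.0 and 65.4 RSEM-style TPM and 155 and 155 kallisto-style TPM. Ndufb9 shared 17.0% with the overlapping gene Gm49356, at 4.99 and 3.48 RSEM-style TPM and 185 and 123 kallisto-style TPM. Ndufs3 shared 19.9% with Gm12251, which stayed below 1 TPM in both tables and both libraries. Ndufab1 shared 6.02% with Gm4459, at 15.1 and 6.90 RSEM-style TPM and 258 and 245 kallisto-style TPM. The copies Ndufs6b, Ndufa11b and Ndufab1-ps had means of 0.305, 0.0900 and 0.970 TPM. The levels of Ndufb4, Ndufs5, Ndufa12, Ndufb9 and Ndufab1 are reported as uncertain, and how much of the difference between the tables comes from shared sequence was not tested. Ndufb1 appeared only as Ndufb1-ps, annotated as a noncoding RNA at a bidirectional promoter, with 126.7 and 126.7 RSEM-style TPM and 305 ± 6.63 kallisto-style TPM.

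Both kinds of table ranked the members in a similar order, with a Spearman correlation of 0.924 across 46 genes. Within the 36 subunits the order differed more, with a correlation of 0.846. The kallisto-style mean was higher for 38 of 46 members, with a median ratio of 1.36, beside 1.20 over 11408 nuclear protein-coding genes detected in both libraries. The ratio was largest for Ndufb4, at 5.68, followed by Ndufs5 at 2.08, Ndufaf3 at 1.99, Ndufb5 at 1.83 and Ndufb2 at 1.79. It was smallest for Ndufa3, at 0.628, followed by Ndufaf4 at 0.834, Ndufab1 at 0.853, Ndufa1 at 0.894 and Ndufc1 at 0.920. The tables subtract different amounts from gene length, 99 bases in the RSEM-style tables and 332.1 and 336.1 in the kallisto-style tables. The Spearman correlation of the ratio with effective length was -0.049 across the 46 members, and the part of these amounts in the ratio was not tested.

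**Figure D3:**
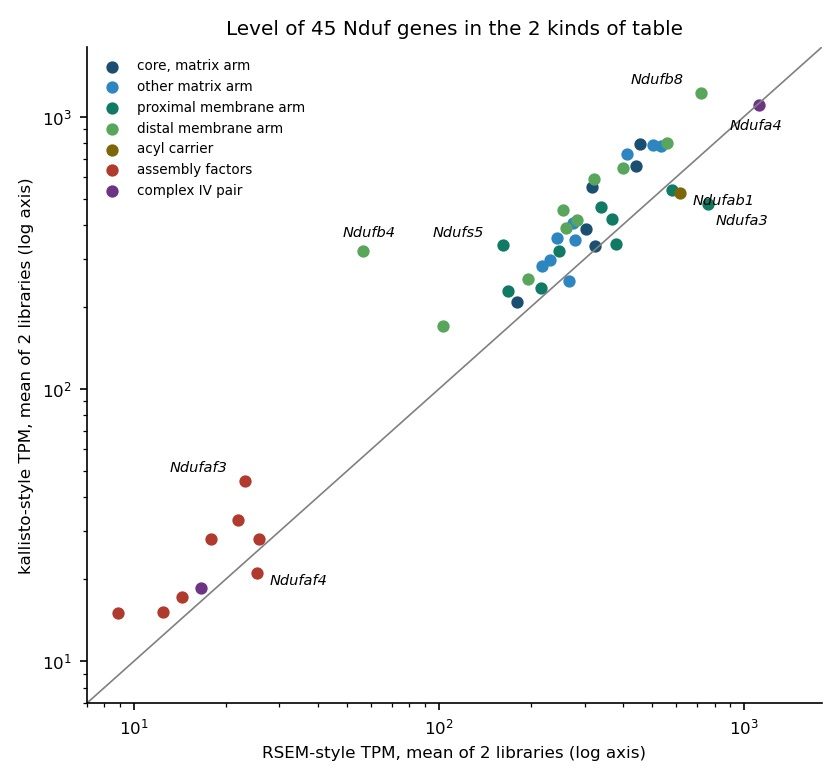
Mean TPM over 2 libraries of 45 members in the RSEM-style tables (horizontal, log axis) and the kallisto-style tables (vertical, log axis), coloured by role, with a line of equal values. Most members lie above the line, Ndufb4 stands farthest from it at a ratio of 5.68, and Ndufa3 lies below it at 0.628.

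The transcripts that carried the signal were not all protein-coding. The 46 members had 226 annotated transcripts, of which 115 were protein-coding, and 6 members had 1 transcript only. Protein-coding transcripts took a median of 95.1% of a subunit's RSEM-style TPM and 68.2% of an assembly factor's. They took under 80% in 18 members and under 50% in 9, and by the kallisto-style tables in 19 and 12, with 8 members under 50% in both. All these shares are of TPM, in which a short transcript weighs more than in counts. By RSEM-style counts some mean shares were higher, such as 66.8% for Ndufa10, 77.0% for Ndufs3, 67.9% for Ndufb4 and 91.4% for Ndufv1. Others were lower, such as 19.8% for Ndufaf4 and 25.4% for Ndufa5. The leading transcript was the same in both tables for 34 members and different for 12.

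Among structural subunits the lowest coding shares in the RSEM-style tables were those of Ndufa3 and Ndufs4, and in the kallisto-style tables those of Ndufc1, at 3.22%, Ndufa7, at 5.54%, and Ndufb4, at 8.50%. The transcript Ndufa3-204, annotated as a target of nonsense-mediated decay and 343 bases long, had 724 and 692 of the 776 and 741 TPM of Ndufa3, leaving 6.54% and 6.33% for coding transcripts. In the kallisto-style tables the retained-intron transcript Ndufa3-205 led instead, with 236 and 224 TPM, and coding transcripts again took little, 8.74%. For Ndufs4 coding transcripts took 10.3% and 12.0%, and Ndufs4-204, another annotated decay target, led both tables with 129.7 and 121 RSEM-style TPM. How reads were divided among the transcripts of a gene is an estimate in both kinds of table, and the leading transcript of Ndufa3 differed between them.

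The other subunits with a coding share under 50% were Ndufab1, at 28.9% and 29.3%, Ndufa5, at 34.5% and 34.1%, Ndufc1, at 34.1% and 35.9%, Ndufa10, at 42.2% and 42.4%, and Ndufb4, at 54.5% in replicate 1 and 41.8% in replicate 2. In Ndufab1 the retained-intron transcript Ndufab1-205 led both tables, and in Ndufa5 the noncoding transcript Ndufa5-204 did. Between 50% and 80% in mean were Ndufs3, at 57.4% and 54.2%, Ndufs7, at 70.5% and 63.6%, Ndufv1, at 72.1% and 70.2%, Ndufb8, at 71.2% and 69.7%, and Ndufb10, at 76.1% and 76.7%. The tables differed most for Ndufa7, whose coding share was 89.6% in the RSEM-style tables and 5.54% in the kallisto-style tables. Ndufa4l2, Ndufb2 and Ndufs6 fell under 80% in the kallisto-style tables only, at 69.3%, 27.7% and 56.8%. Ndufv3 is known for a short form and a long form that differ by an exon, and its short transcript Ndufv3-202 of 493 bases held 544 and 511 TPM, against 5.17 and 4.70 for Ndufv3-201 of 1582 bases.

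Assembly factors varied as much. Coding transcripts took 30.97% and 29.2% of Ndufaf8 in the RSEM-style tables but 98.4% in the kallisto-style tables. In Ndufaf4 they took 41.1% and 40.0% and, by the kallisto-style tables, 6.57%, and the noncoding transcript Ndufaf4-202 of 2358 bases led both. The shares were 60.1% and 64.5% for Ndufaf6, 66.0% and 60.3% for Ndufaf7 and 75.2% and 71.1% for Ndufaf3. Ndufaf1 had 96.2% and 92.7%, Ndufaf5 had 92.3% and 92.6%, and Ndufaf2 had 100% in both libraries.

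**Figure D4:**
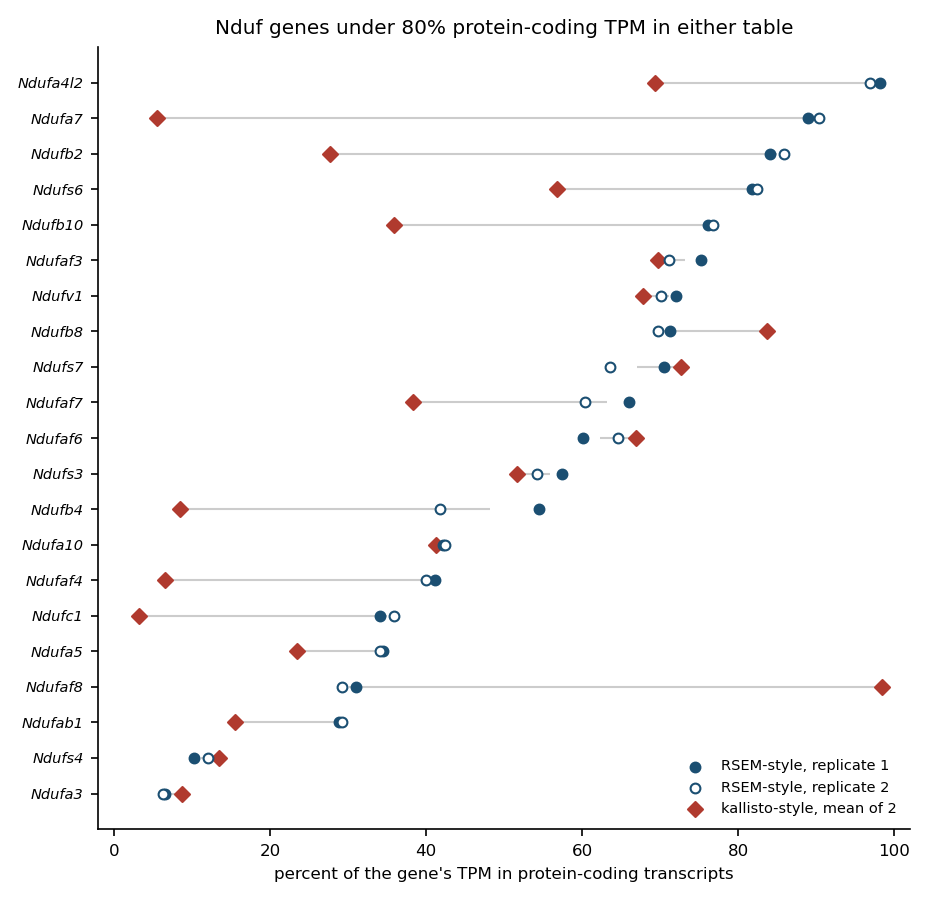
Percent of each gene's TPM in protein-coding transcripts for 21 members under 80% in either table, by the RSEM-style tables in replicate 1 (filled) and replicate 2 (open) and by the kallisto-style tables (diamonds, mean of 2 libraries); grey lines join the means of the tables. Replicates lie close together for most genes, and the tables lie far apart for Ndufa7, Ndufaf8, Ndufb2 and Ndufb10.

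The 2 libraries were then set against each other member by member with a 2-sided exact binomial test on expected counts, which compares these libraries only and covers counting error only. Of the 46 members 11 differed at a Benjamini-Hochberg adjusted p of 0.05, or 23.9%, beside 21.7% of the 16611 genes tested, a share near the background. All 11 were lower in replicate 2, the direction of 11.5% of all genes, while 10.3% of all genes were higher. They were the core subunits Ndufv1 and Ndufs1, the matrix-arm subunits Ndufv3, Ndufa9 and Ndufa7, the proximal subunits Ndufa3, Ndufa11 and Ndufa13, and the distal subunits Ndufb6, Ndufb9 and Ndufb10. Their log2 ratios ran from -0.13 for Ndufa7 (exact binomial test, adjusted p = 0.00277) to -0.04 for Ndufs1 (adjusted p = 0.0213). None of the members differed by 2-fold or more, beside 3.15% of all genes (2.41% higher and 0.734% lower in replicate 2). With edgeR's exact test and an assumed coefficient of variation of 0.1 between samples, 0 members and 2.85% of all genes were called.

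Over all members the log2 ratio of replicate 2 over replicate 1 lay between -0.18 for Ndufa4l2 and 0.13 for Ndufaf7. Its median was -0.03, with 10 members above 0 and 36 below, beside a median of 0.00 over all genes tested. The 36 subunits had a median of -0.04 with 31 below 0, and the 8 assembly factors a median of 0.10 with 3 below 0. The intervals of all 8 assembly factors included 0. Log2 ratios of the complex II subunits were -0.03 for Sdha, -0.07 for Sdhb, -0.01 for Sdhc and -0.05 for Sdhd. Those of the mitochondrially encoded subunits ran from -0.19 for mt-Nd3 to -0.03 for mt-Nd2. Among the cardiomyocyte markers Myh6 was at -0.20, Ttn and Tnnt2 at -0.12, Tnni3 at -0.09, Ryr2 at 0.01 and Actc1 at 0.02. The atrial and thymus markers also moved between the same libraries. Of 4 brown adipocyte markers, whose sum was 36.0 and 23.2 TPM, Ucp1 had 9.76 and 0.320 TPM, Cidea 25.8 and 22.6, Dio2 0.460 and 0.310 and Elovl3 0.0200 and 0. Each of the 4 atrial markers was lower and each of the 8 thymus and T cell markers was higher in replicate 2, and Ptcra was at 0 in replicate 1. The part of these tissues in the ratios of the members was not tested.

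**Figure D5:**
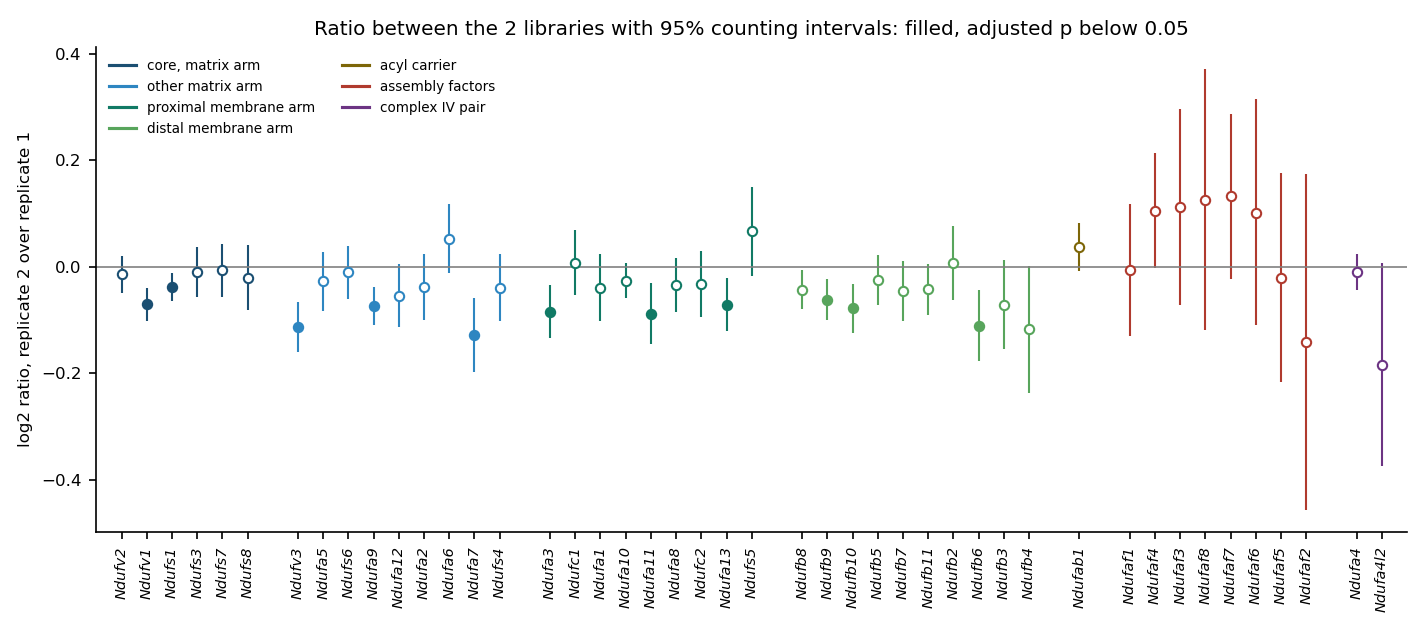
Log2 ratio of replicate 2 over replicate 1 for 45 members, from counts scaled by TMM, with exact 95% counting intervals, grouped and ordered as in the plot of levels; filled points had an adjusted p below 0.05. The 11 filled points are all below 0, and the intervals of the 8 assembly factors include 0.

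Promoter sequence was described from RefSeq windows of GRCm38.p6, 250 bases before to 50 after the start site, which were matched by symbol for 40 of 46 members; those not matched included Ndufa2, Ndufa4l2, Ndufaf6, Ndufb9 and Ndufs1. NRF1, YY1, GABP and ERR are factors known to act on genes of the respiratory chain, so their motifs were searched on both strands, with the general CCAAT box beside them. The core of the NRF1 motif, CGCANGCG, was present in 13 of 40 promoters, or 32.5%, against 9.22% of 27025 genes and 12.5% of 17492 protein-coding genes. The YY1 motif AAGATGGCG was present in 6, or 15%, against 1.64% and 2.14%. The motif CCGGAAG of ETS factors such as GABP was present in 6, or 15%, against 9.93% and 12.9%. The ERR motif TCAAGGTCA was found in 0 of 40 and in 0.466% and 0.377%, and CCAAT in 14, or 35%, against 41.1% and 42.3%. These are matches of letters, with no test and no measure of binding.

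All 6 YY1 matches lay on the strand of the gene, with their first base 11 to 36 bases after the start site, in Ndufs7, Ndufs4, Ndufs6, Ndufa9, Ndufc1 and Ndufaf8. In 4 of them, Ndufa9, Ndufc1, Ndufs4 and Ndufs6, the ATG inside the motif began an annotated coding sequence as far as the window reached. Spliced coding sequence was compared with the genomic window, so an intron inside the window would break the match. Whether the ATG in Ndufs7 and Ndufaf8 is a start codon was therefore not decided. The NRF1 core was in 10 of 32 structural subunits and in Ndufaf2, Ndufaf4 and Ndufaf5 of 7 assembly factors. Ndufs6 and Ndufaf8 had the most kinds of motif, 3 each, although their mean levels were 413.9 and 21.9 TPM, and both windows are shown with matches in capitals, each on the strand of its gene: Ndufs6 from chr13:73328433-73328732, minus strand, with CCAAT (reversed), NRF1 (reversed) and YY1 in that order, and Ndufaf8 from chr11:120098684-120098983, plus strand, with CCAAT at 4 places, CCGGAAG and YY1.
Ndufs6: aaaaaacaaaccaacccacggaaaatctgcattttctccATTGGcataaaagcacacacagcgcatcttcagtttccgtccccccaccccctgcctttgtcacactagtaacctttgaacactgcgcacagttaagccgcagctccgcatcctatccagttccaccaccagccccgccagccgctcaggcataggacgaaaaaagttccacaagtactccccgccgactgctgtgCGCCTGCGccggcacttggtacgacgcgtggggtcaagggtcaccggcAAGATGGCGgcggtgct
Ndufaf8: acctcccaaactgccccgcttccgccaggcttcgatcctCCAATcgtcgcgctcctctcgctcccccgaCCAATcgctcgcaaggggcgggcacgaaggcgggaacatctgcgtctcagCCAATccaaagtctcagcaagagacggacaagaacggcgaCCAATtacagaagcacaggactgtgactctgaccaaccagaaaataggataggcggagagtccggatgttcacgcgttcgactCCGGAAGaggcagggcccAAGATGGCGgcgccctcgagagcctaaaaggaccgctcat
No 2 of these matches overlapped each other.

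The members lay on 17 chromosomes. Exons of 19 members overlapped those of another annotated gene, and 13 of these overlapped a gene on the opposite strand that was detected in both libraries, such as Mrpl47 at 14.8 and 17.2 TPM, which shared 616 exonic bases with Ndufb5. These overlaps ran from 4 bases, for Ndufa3 and Tfpt, to the 616 bases of Ndufb5. The libraries were stranded per the labels, while the strand setting of the counting is not given in the sources used here. Reads within the shared bases therefore cannot be told apart from those of the members by these tables. Ndufb9 overlapped Gm49356 on its own strand.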

How the data were processed

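Total RNA of 2 heart libraries was measured by stranded sequencing. Per the file headers, the authors deposited RSEM-style gene and transcript tables, which hold expected counts, TPM as 2 estimates (one a posterior mean) and each transcript's percent of its gene, and kallisto-style transcript tables, which hold estimated counts and TPM. The tool names come from column names, and the sources used here give no versions. The authors' readme gives mm10 and annotation M21. Depth per library stands in the report, and its counting error is given as intervals.

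Main values were RSEM-style gene TPM, without further scaling. Kallisto-style transcripts were summed per gene. SDs are over 2 libraries, and detection was 1 TPM in both. Libraries were compared by a 2-sided exact binomial test on rounded expected counts with TMM-scaled library sizes (edgeR 4.0.16, R 4.3.3), over genes with 10 counts in each library or 20 in total, with exact 95% intervals, and Benjamini-Hochberg adjustment at 0.05. It was tested on simulated data. DESeq2 1.42.0 gave alternative size factors. Distinct stretches of 31 and 100 bases were compared between the transcripts of all genes.

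The members and lists were chosen with earlier results of these data known. Members named were the highest and lowest of each role group, all assembly factors and paralogs, those differing most between tables and those with a coding share under 80%. Of 37 subunits planned, 36 had a protein-coding transcript. Values of 1 member are not reported here, though counts and medians over groups include it.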

Additional observations from a re-analysis of the deposited data

How the results depend on the processing

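Of 56 alternative values, 42 stayed within the spread set for them or, for counts, close to the count reported, 13 moved and 1 reversed. The spread was that between replicates, except for the median library ratio of members. That ratio compares the replicates, so its yardstick of 0.07 was not a spread between them. The 42 include values whose outcome was fixed in advance and which are no check. With 2 libraries, a ratio or spread from 1 of them always lies within their SD of the mean. Members detected could not fall with a replicate left out or at 0.5 TPM. Adding Ndufa4, above the subunit median, and Ndufa4l2, below it, could not move that median. The log2 ratio of subunit over assembly factor medians was 4.49 from protein-coding transcripts only, and lay between 3.81 and 4.11 with either replicate left out. The SD of subunit levels was 0.64 by kallisto-style TPM, 1.01 from protein-coding transcripts only, 0.94 by counts scaled for depth only and 0.65 with Ndufb4 and Ndufb4c summed, and 0.77 to 0.78 with a replicate left out. The log2 ratio of Ndufa4 over Ndufa4l2 was 5.89 by kallisto-style TPM and 4.92 by counts scaled for depth only, and 5.98 to 6.15 with a replicate left out. That of Ndufa12 over Ndufaf2 was 4.76 by kallisto-style TPM, 4.87 by posterior mean TPM, 4.72 by counts scaled for depth only and 4.81 with a pseudocount of 1 TPM, and 4.91 to 4.97 with a replicate left out. That of Ndufb4 over Ndufb4c was -0.99 by counts scaled for depth only and -2.11 to -2.03 with a replicate left out. It reversed to 8.45 by kallisto-style TPM, where the copy had 0 counts and was set to a floor of 3. This value is no lower bound, since reads of the copy cannot be told apart from those of the gene. The cause of the reversal was not tested. Members detected were 46 with either replicate left out. Members differing between the libraries were 11 as reported, 9 to 13 under other scalings, filters or tables, and 0 by edgeR's exact test with an assumed coefficient of variation of 0.1. Leaving out a replicate gives no value for the comparison of libraries, and Ndufb4c has no protein-coding transcript to compare. No paired analysis was possible because both libraries share 1 group. The 2 alternatives on summed copies and on subunits with a coding share of at least 80%, which gave 3.75 for the ratio of medians, were chosen after seeing the data. Depth limits the assembly factors most, since Ndufaf2 rests on 162 and 179 counts.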
